A study of Mus musculus with 12 samples.

Results

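The 39 genes described here drive DNA replication and mitosis. They were chosen by gene symbol, 17 with roles in S phase and 22 with roles in G2 and mitosis, out of 43346 genes in the deposited table, of which 18965 passed the filter on low counts. All 39 passed it, with between 235 and 453 reads per library for the least covered of them, Ccne1. The study sequenced RNA from mouse veins in 12 samples. The 6 sham samples were jugular veins after sham surgery, and the 6 AVF-CKD samples were the venous limb of the AVF. Both were taken at day 7 after surgery. AVF-CKD is read here as arteriovenous fistula, a surgical join of an artery to a vein, in a chronic kidney disease model, because the labels do not spell it out. Strain, sex, age, the way kidney disease was induced and any pooling of animals are not stated in the labels. Whether every library is a mouse of its own is not stated either, and p-values therefore speak of the spread between these libraries alone. The vessel, the fistula surgery and the disease model cannot be told apart, because all of them may differ between the groups.

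The cell cycle copies the genome in S phase and parts the copies in mitosis. Licensing factors load the MCM helicase onto origins, the fork proteins copy the DNA behind it, and dedicated enzymes supply the nucleotides. E2F factors switch on these genes as a cell leaves G1. Later in the cycle the DREAM and MuvB complexes, with B-Myb and Foxm1, control a second set of genes for cyclin B, Cdk1, the mitotic kinases, the kinetochore and the spindle, often through CHR and CCAAT elements in their promoters. In a vein exposed to arterial flow, smooth muscle cells, fibroblasts, endothelium and macrophages can all divide. In whole-vein RNA, fewer dividing cells and less RNA per dividing cell cannot be told apart.

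Promoter sequences are shown first because they set the S-phase and mitotic members apart without using the expression values. RefSeq promoters (GRCm38.p6, 250 bases before to 50 after the annotated start) were matched by symbol for 31 of the 39 members, 14 S-phase and 17 mitotic. The CHR word TTTGAA, on either strand, stood in the promoters of 12 of 17 mitotic members and 1 of 14 S-phase members, against 20.2% of all 27025 genes in the promoter table. An E2F-type word (TTTCCCGC, TTTGGCGC, TTTGCCGC or TTTCGCGC, either strand, overlaps between words allowed) stood in 7 of 14 S-phase and 1 of 17 mitotic promoters, against 2.61% of all genes. CCAAT was found in 15 of 17 mitotic and 8 of 14 S-phase promoters (41.1% of all genes), and at 2 or more places in 9 and 5 of them (13.3% of all genes). The GC box word GGGCGG did not part the classes in this way, with 14 of 17 and 12 of 14 (38.2% of all genes). The same split appeared in genes outside the 39: TTTGAA stood in 29 of 42 promoters of other mitotic genes and in 6 of 30 promoters of other replication genes, and an E2F-type word in 5 and 10 of them. A match is a description of the letters in this window, and says nothing of binding.

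The following stretches belong to the 3 mitotic and the 3 S-phase members with the highest expression per length that had an entry. They are written 5′ to 3′ on the gene's own strand, with TTTGAA, E2F-type words and CCAAT in capitals; CCAAT reads as ATTGG where it lies on the other strand. For Ccnb2, Cdk1, Mcm6 and Mcm3 150 bases are given that end before the RefSeq start or, in Cdk1, before the gene model of the deposited table, which starts further upstream. For Cenpa and Pcna, whose gene models also start upstream of RefSeq's start, the 30 bases around their CCAAT words are given.
Ccnb2, mitotic, chr9:70421555-70421704, minus strand: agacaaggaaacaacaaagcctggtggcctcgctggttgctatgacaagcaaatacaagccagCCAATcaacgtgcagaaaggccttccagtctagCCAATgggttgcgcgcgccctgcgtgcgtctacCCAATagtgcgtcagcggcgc
Cdk1, mitotic, chr10:69352939-69353088, minus strand: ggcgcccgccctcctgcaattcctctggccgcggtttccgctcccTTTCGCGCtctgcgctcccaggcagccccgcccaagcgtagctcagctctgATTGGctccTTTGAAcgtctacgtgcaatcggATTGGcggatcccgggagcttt
Cenpa, mitotic, chr5:30666776-30666805, plus strand: cATTGGcttcagacctttattctcATTGGt
Pcna, S phase, chr2:132253251-132253280, minus strand: aaccacgggtacgATTGGtccttgaggaga
Mcm6, S phase, chr1:128359706-128359855, minus strand: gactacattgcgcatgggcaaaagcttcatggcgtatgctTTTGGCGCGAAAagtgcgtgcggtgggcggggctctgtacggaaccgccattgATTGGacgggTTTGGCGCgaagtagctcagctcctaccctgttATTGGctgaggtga
Mcm3, S phase, chr1:20820313-20820462, minus strand: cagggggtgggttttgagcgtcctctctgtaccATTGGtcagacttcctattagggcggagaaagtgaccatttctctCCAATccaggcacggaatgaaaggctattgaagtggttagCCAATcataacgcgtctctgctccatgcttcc
Over the whole windows, the 3 mitotic promoters held 5 TTTGAA words and 1 E2F-type word, and the 3 S-phase promoters 0 and 5. Ccnb2 has 3 CCAAT words in the stretch shown, and its TTTGAA words begin at -167 and 5, counted from the RefSeq start. Cenpa has its TTTGAA at 17, and Mcm3 its E2F-type words at 20 and 39, so these lie outside the stretches shown. In Mcm6 the first 2 E2F-type words overlap.

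Expression of the 39 genes was moderate. Per length (RPKM, computed here as CPM per kilobase of the gene length in the table) they ran from 1.13 for Cenpf, a kinetochore protein gene, to 26.0 for Pcna, the sliding clamp of DNA polymerase, against a median of 4.75 over all genes tested. Pcna stood above 87.7% of the genes tested, Mki67, the gene of the proliferation marker Ki-67, above 64.3% and Cenpf above 23.5%. Total counts ranged from 38.65 to 60.14 M reads per library. The marker sums showed a vein wall with other tissue attached. Smooth muscle genes summed to 1178 to 2471 CPM and endothelial genes to 845 to 1418 CPM over the 12 libraries. Fibroblast genes had the largest sums, 17460 to 32090 CPM. Macrophage genes summed to 6089 to 12351 CPM and skeletal muscle genes to 428 to 11405 CPM. Fat genes summed to 434 to 2465 CPM and erythroid genes to 1145 to 6089 CPM. None of the listed markers in the table was at 0 in all libraries.

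No member passed the test between AVF-CKD and sham veins. At an edgeR adjusted p below 0.05, 0 of 39 members were called, as were 0 of the 18965 genes tested (0%). Adjusted p-values of the members ran from 0.492 to 0.9995. At an unadjusted p below 0.05 there were 2 members, Tk1 and Cdt1, both with the higher mean in AVF-CKD (2 of 39 against 5.26% of all genes in that direction), and 0 with the lower mean (4.08% of all genes). DESeq2 called 0 members while calling 0.538% of all genes. It too had 2 of 39 members at an unadjusted p below 0.05, against 2002 of the 18965 genes tested. limma voom called 0, with 4 of 39 members at an unadjusted p below 0.05, against 1740 of the 18965 genes tested. The values of the groups overlapped for all 39 members, and 0.638% of all genes had groups that did not overlap. The 95% interval stayed under a 1.5-fold difference either way for 34 of 39 members (65.3% of all genes) and under a 2-fold difference for all 39.

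Most members had slightly higher means in AVF-CKD. The fitted log2 fold change was above 0 for 37 of 39 members, against 49.1% of all genes. Its median was 0.12, against -0.0025 over all genes tested. All 17 S-phase members were above 0 (median 0.17, from 0.00 for Ccne2 to 0.34 for Cdt1), as were 20 of 22 mitotic members (median 0.099, from -0.05 for Ccnb2 to 0.24 for Aurkb). These genes rise and fall together from library to library, so the 37 are not 37 separate observations. The counts depended on single sham libraries. Without sham 1 there were 29 members above 0 and the mitotic median was 0.024. Without sham 5 all 39 were above 0 and the medians were 0.24 for S-phase and 0.26 for mitotic members.

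**Figure D1:**
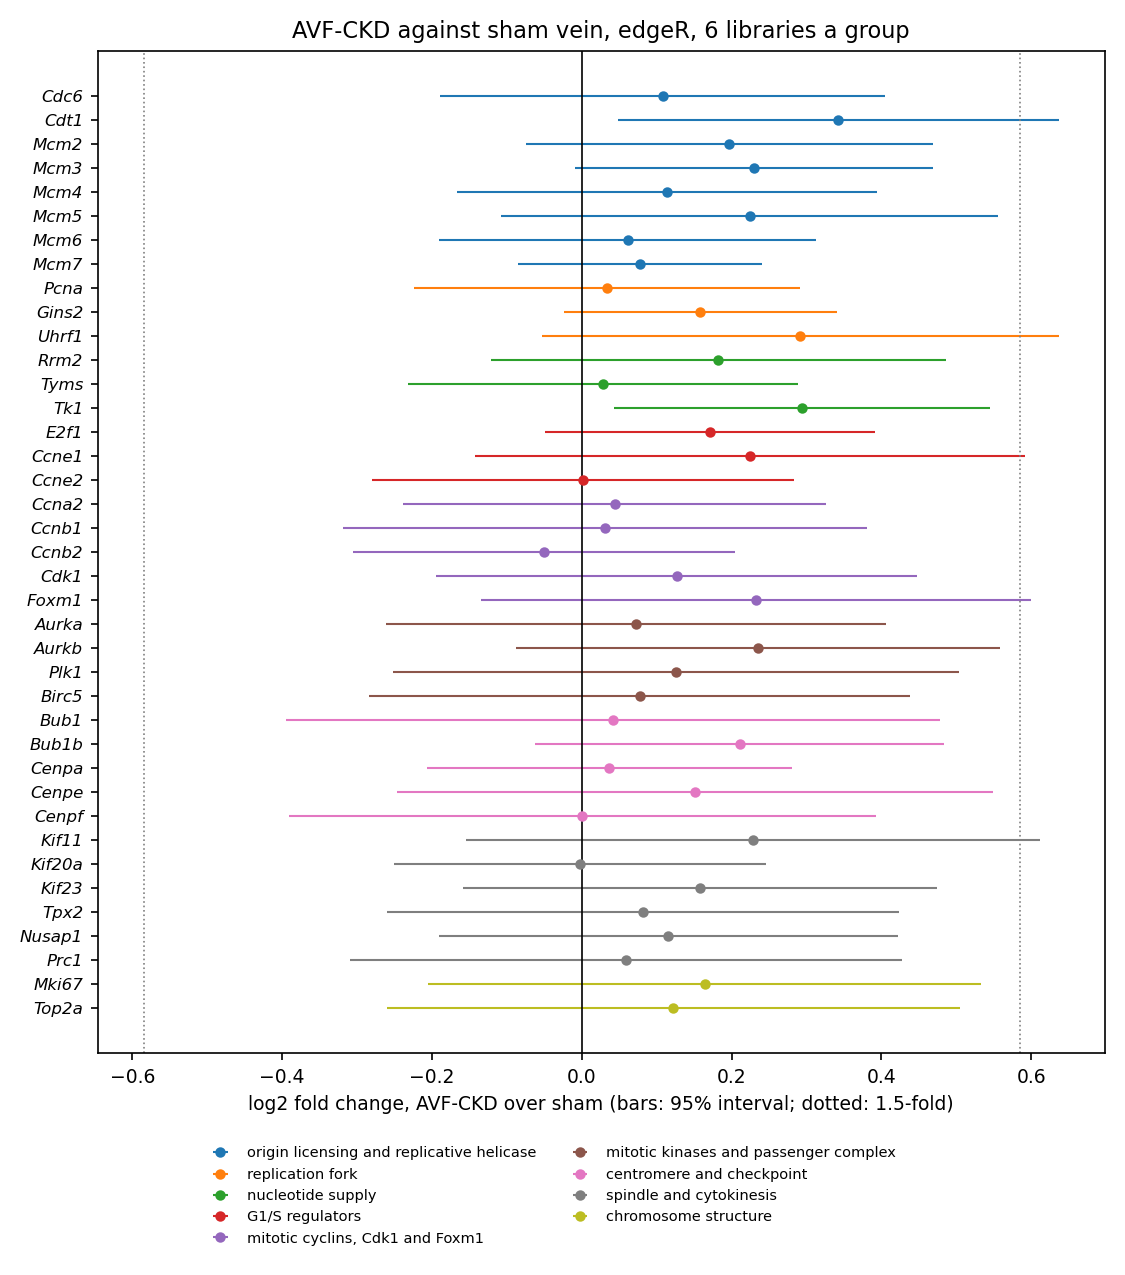
Fitted log2 fold changes of AVF-CKD over sham for each member (points) with 95% intervals (bars), coloured by role; dotted lines mark 1.5-fold in either direction. The points lie between -0.05 and 0.34, and the intervals of all members but Cdt1 and Tk1 include 0.

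Among the licensing and helicase genes, Mcm6 and Cdt1 mark the range. Mcm6 (ENSMUSG00000026355, GRCm38 chromosome 1, 128331590 to 128359664) encodes a subunit of the replicative helicase. Its sham values ran from 50.2 CPM in sham 1 to 81.8 CPM in sham 5 (median 59.3), and its AVF-CKD values from 52.9 to 72.0 CPM (median 65.5). The AVF-CKD range sat inside the sham range, and the log2 fold change was 0.06 ± 0.12 (SE; edgeR adjusted p = 0.901). Cdt1 (chromosome 8, 122568015 to 122573128) loads the helicase onto origins and had the largest fold change of the 39. Sham libraries lay between 6.58 and 10.8 CPM (median 9.41) and AVF-CKD libraries between 8.94 and 13.1 CPM (median 12.001). In 5 of 6 AVF-CKD libraries Cdt1 was above every sham library, with AVF-CKD 5 as the exception. Its log2 fold change was 0.34 ± 0.14 (SE; edgeR adjusted p = 0.496). The other members of this role, Cdc6 and Mcm2, Mcm3, Mcm4, Mcm5 and Mcm7, had log2 fold changes from 0.08 to 0.23. AVF-CKD 5 was the lowest library for 14.6% of all genes tested and the highest for 13.4%, larger shares than in any other library.

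At the fork, Pcna (chromosome 2, 132249162 to 132253314) ran from 52.0 to 71.7 CPM in sham (median 61.2) and from 50.4 to 74.4 CPM in AVF-CKD (median 63.8). The groups covered the same range, and the log2 fold change was 0.03 ± 0.12 (SE; edgeR adjusted p = 0.952). Gins2, a subunit of the active helicase, ran from 20.6 to 26.4 CPM in sham (median 22.9) and from 22.4 to 28.8 CPM in AVF-CKD (median 25.9). Its log2 fold change was 0.16 ± 0.08 (SE), but 67.3% of its exonic bases lie under Gse1 on the other strand. The strand setting of the counts is not stated, and another gene described below, Ube2c, had counts that went with a gene on the other strand. The counts of Gins2 are therefore uncertain, and it remains in the S-phase counts and medians. Uhrf1, which carries DNA methylation through replication, had a log2 fold change of 0.29 ± 0.16.

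Among the nucleotide supply genes, Rrm2, the regulated subunit of ribonucleotide reductase, ran from 16.0 to 31.1 CPM in sham (median 19.6) and from 22.5 to 26.7 CPM in AVF-CKD (median 23.5). The AVF-CKD libraries were tightly grouped within the wider sham range, and the log2 fold change was 0.18 ± 0.14. Tk1 (chromosome 11, 117815526 to 117826092), the thymidine salvage kinase of S phase, had the smallest p of the 39. Sham libraries lay between 16.5 and 25.3 CPM (median 18.6) and AVF-CKD libraries between 20.2 and 29.3 CPM (median 23.5). Sham 5 lay within the AVF-CKD range, and 4 of the other 5 sham libraries lay below all AVF-CKD libraries. The log2 fold change was 0.29 ± 0.12 (SE; edgeR adjusted p = 0.492). Tyms, which makes thymidylate, had 0.03 ± 0.12.

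The G1/S regulators had no clear difference. E2f1 (chromosome 2, 154559407 to 154569892), the transcription factor of the S-phase genes, ran from 19.5 to 27.5 CPM in sham (median 24.3) and from 23.3 to 31.6 CPM in AVF-CKD (median 27.2). The ranges overlapped over much of their length, and the log2 fold change was 0.17 ± 0.10 (SE; edgeR adjusted p = 0.635). The cyclin E genes, which open S phase, had log2 fold changes of 0.22 ± 0.17 for Ccne1 and 0.00 ± 0.13 for Ccne2.

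The SD of log2 CPM was larger in sham than in AVF-CKD for 22 of 22 mitotic members. Ccna2, the cyclin of S and G2 phase, ran from 38.8 CPM in sham 1 to 74.0 CPM in sham 5 (median 48.4) and from 45.1 to 58.5 CPM in AVF-CKD (median 53.0). Its log2 fold change was 0.04 ± 0.13 (SE; edgeR adjusted p = 0.943). Foxm1, a transcription factor of the mitotic genes, ran from 14.7 to 33.6 CPM in sham (median 17.5) and from 22.2 to 27.8 CPM in AVF-CKD (median 22.8). All 6 AVF-CKD libraries were above the 5 sham libraries other than sham 5, and the log2 fold change was 0.23 ± 0.17 (SE; edgeR adjusted p = 0.712). Ccnb2 (chromosome 9, 70407689 to 70421554), a cyclin partner of Cdk1, had the lowest fold change of the 39. Sham libraries ran from 16.4 to 25.4 CPM (median 16.8) and AVF-CKD libraries from 14.6 to 19.5 CPM (median 18.2). The median was higher in AVF-CKD and the mean lower, because sham 5 stood at 25.4 CPM and the next sham library at 19.0 CPM. Ccnb1 had a log2 fold change of 0.03 ± 0.16 and Cdk1 of 0.13 ± 0.15.

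Kinase and centromere genes varied in how far the sham values reached beyond those of AVF-CKD. Birc5, which encodes survivin of the chromosomal passenger complex, ran from 14.9 to 28.9 CPM in sham (median 19.4) and from 15.8 to 28.5 CPM in AVF-CKD (median 20.3). Its groups had near equal ranges. Aurkb, the kinase of that complex, ran from 9.48 to 17.5 CPM in sham (median 12.1) and from 11.7 to 16.8 CPM in AVF-CKD (median 14.1), and edgeR gave 0.24 ± 0.15 on the log2 scale (adjusted p = 0.659). Cenpa, the histone H3 variant that marks centromeres, ran from 23.2 to 33.8 CPM in sham (median 24.6) and from 21.998 to 33.0 CPM in AVF-CKD (median 26.4). Bub1b, a spindle checkpoint gene, ran from 16.0 to 27.9 CPM in sham (median 18.5) and from 19.5 to 24.4 CPM in AVF-CKD (median 23.4). Bub1b was at 22.9 CPM or more in 5 AVF-CKD libraries and lower in AVF-CKD 5, with a log2 fold change of 0.21 ± 0.13. Aurka, Plk1, Bub1, Cenpe and Cenpf had log2 fold changes from 0.00 to 0.15.

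In the spindle and chromosome genes sham 1 was the lowest and sham 5 the highest sham library for every gene named here. Kif11, the motor that parts the spindle poles, ran from 15.7 to 37.1 CPM in sham (median 22.4) and from 22.2 to 34.7 CPM in AVF-CKD (median 27.5). Kif20a, a cytokinesis motor whose exons overlap Cdc23 over 29.3% of their bases, ran from 28.3 to 47.9 CPM in sham (median 33.3) and from 31.1 to 38.1 CPM in AVF-CKD (median 33.9). Its sham mean of 34.5 CPM and AVF-CKD mean of 34.4 CPM showed a difference far smaller than the spread between libraries. Mki67 (ENSMUSG00000031004, chromosome 7, 135689788 to 135716379) was at 57.8 CPM in sham 1, 67.1 in sham 2, 67.7 in sham 3, 83.3 in sham 4, 126 in sham 5 and 68.5 in sham 6. In AVF-CKD it was at 75.3, 84.9, 77.0, 95.5, 85.2 and 109 CPM for libraries 1 to 6. Only sham 4 and sham 5 reached the AVF-CKD range, and sham 5 passed its top. The log2 fold change was 0.16 ± 0.17 (SE; edgeR adjusted p = 0.806), and it went from 0.09 without sham 1 to 0.35 without sham 5. Top2a, which untangles the copied chromosomes, had 0.12 ± 0.18, and Kif23, Tpx2, Nusap1 and Prc1 had 0.06 to 0.16.

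Sham 5 stood apart from the other libraries most clearly in the mitotic members. It had the highest level of the 12 libraries for 22 of 22 mitotic members and 9 of 17 S-phase members, while it was the highest library for 7.44% of all genes tested. Against the mean of the other 5 sham libraries, sham 5 was 1.38 to 1.98 times as high for mitotic members (median 1.72) and 1.11 to 1.71 times for S-phase members (median 1.37). Mean log2 CPM of the mitotic members was 5.10 in sham 5, 4.09 to 4.45 in the other sham libraries and 4.43 to 4.78 in AVF-CKD. That of the S-phase members was 4.78 in sham 5, 4.14 to 4.57 in the other sham libraries and 4.39 to 4.71 in AVF-CKD. Sham 1 was the opposite case, lowest of the 12 for 18 mitotic and 10 S-phase members (lowest for 10.95% of all genes). The same libraries led outside the 39, where sham 5 was highest for 40 of 50 other mitotic genes and sham 1 lowest for 33 of 50. Sham 5 had the highest smooth muscle sum of the 12 libraries (2471 CPM), but sham 6 (2429 CPM) and sham 1 (2354 CPM) were close to it. Sham 1 had the lowest erythroid sum (1145 CPM, others 2481 to 6089 CPM). The erythroid sum of sham 5 (5472 CPM) was slightly below that of sham 6 (5504 CPM). The part of these cell types in the levels of the members was not tested.

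**Figure D2:**
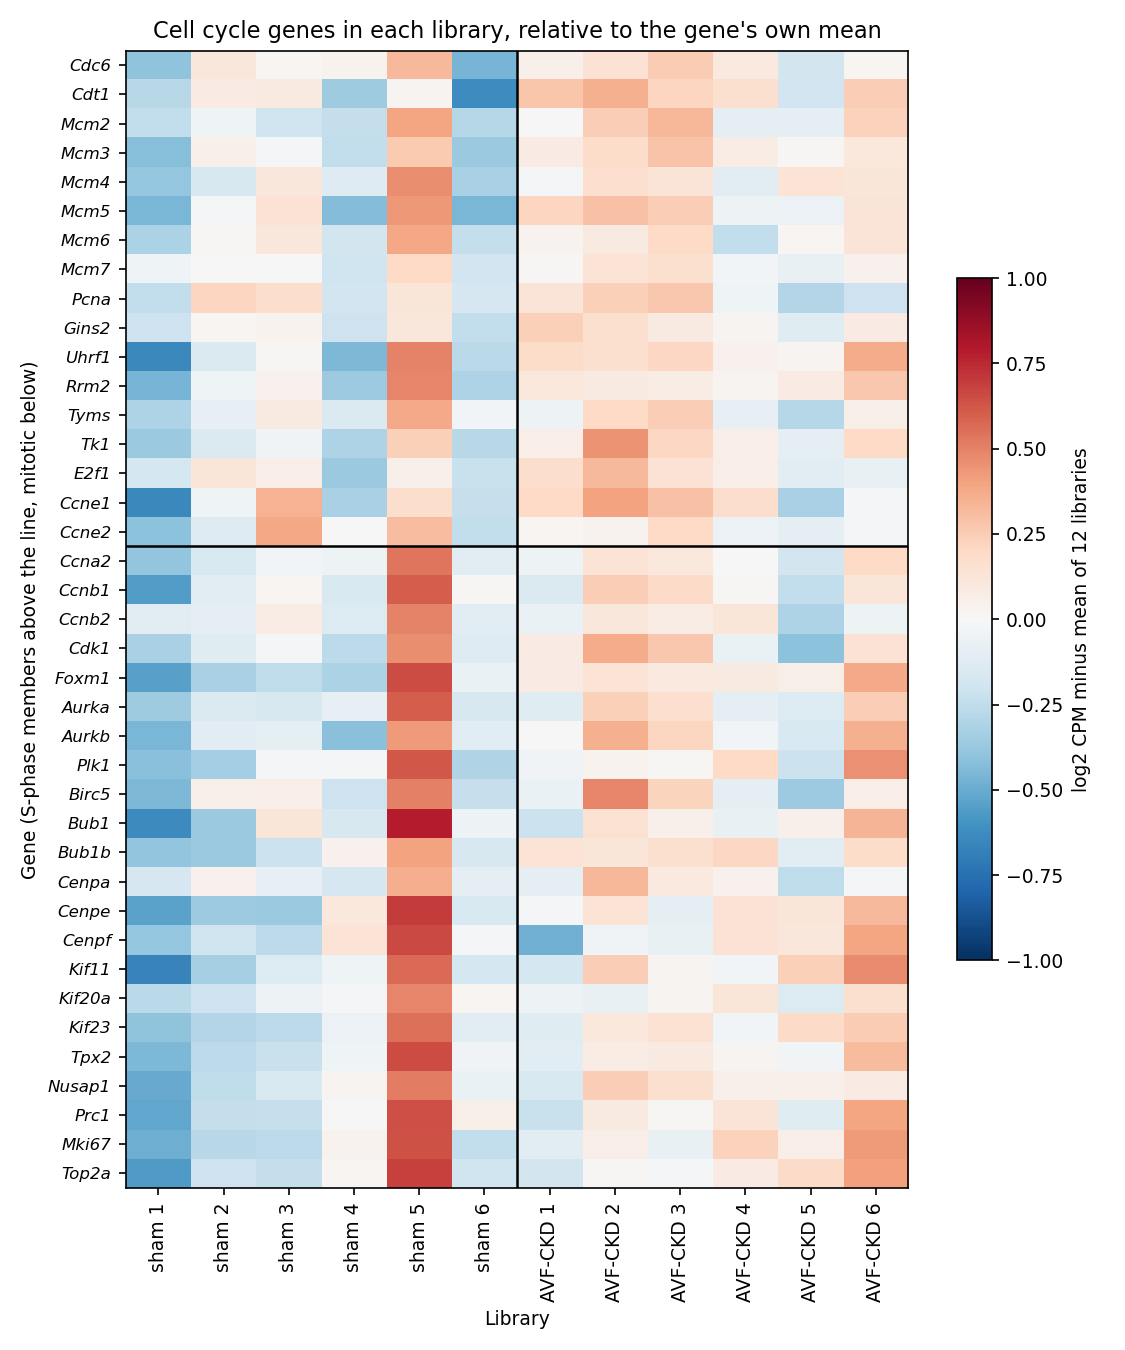
Log2 CPM of each member in each library minus the gene's mean over the 12 libraries (red above, blue below), with sham libraries left of the vertical line, AVF-CKD right of it, S-phase members above the horizontal line and mitotic members below. The column of sham 5 is red for every mitotic member and that of sham 1 blue, while the AVF-CKD columns are paler.

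The SD of log2 CPM was larger in sham than in AVF-CKD for 38 of 39 members, against 47.9% of all genes, with a median SD of 0.32 in sham and 0.16 in AVF-CKD. Without sham 5 it was larger in sham for 25 of 39 (13 S-phase and 12 mitotic; 46.1% of all genes). Without sham 5 and sham 1 it was larger for 17 of 39 (45.1% of all genes), of which 13 were S-phase members and 4 mitotic, so the S-phase count stayed at 13 of 17. These last counts were chosen after the data were seen, and leaving out the highest and the lowest sham library lowers the sham SD by construction.

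Levels of the S-phase and mitotic members were next compared within each library. The mean log2 CPM of the mitotic members minus that of the S-phase members differed by -0.046 (AVF-CKD minus sham), and the AVF-CKD values lay inside the range of the sham values. Leaving out a library moved it from -0.092 (without sham 3) to 0.0062 (without sham 5). Within numbers 1 to 3 it was 0.039, and within numbers 4 to 6 -0.13, where all 3 AVF-CKD values lay below all 3 sham values. The level difference itself was below 0 in all 6 libraries whose titles carry the numbers 1 to 3 and above 0 in all 6 with the numbers 4 to 6. In sham it was -0.05, -0.16 and -0.17 in libraries 1 to 3 and 0.20, 0.32 and 0.22 in libraries 4 to 6. In AVF-CKD it was -0.16, -0.02 and -0.09 in libraries 1 to 3 and 0.09, 0.06 and 0.19 in libraries 4 to 6. The labels give the numbers no meaning as a batch, and this split was chosen after the values were seen, so it is a description with no test. On average the difference was 0.29 higher in numbers 4 to 6. Over both groups the median difference between the sets of numbers was 0.24 for mitotic members (19 of 22 above 0) and -0.06 for S-phase members (3 of 17 above 0), against 0.005 for all genes tested. In sham the mean mitotic level was 4.27 in numbers 1 to 3 and 4.65 in numbers 4 to 6, which hold sham 5, while the mean S-phase level was 4.395 and 4.408. In AVF-CKD the mitotic level was 4.58 and 4.61, and the S-phase level 4.67 and 4.49. This difference between the groups was not tested. Higher levels in numbers 4 to 6 in both groups were seen for 12 of 22 mitotic members (33.3% of all genes), and lower levels in both for 7 of 17 S-phase members (33.8% of all genes).

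**Figure D3:**
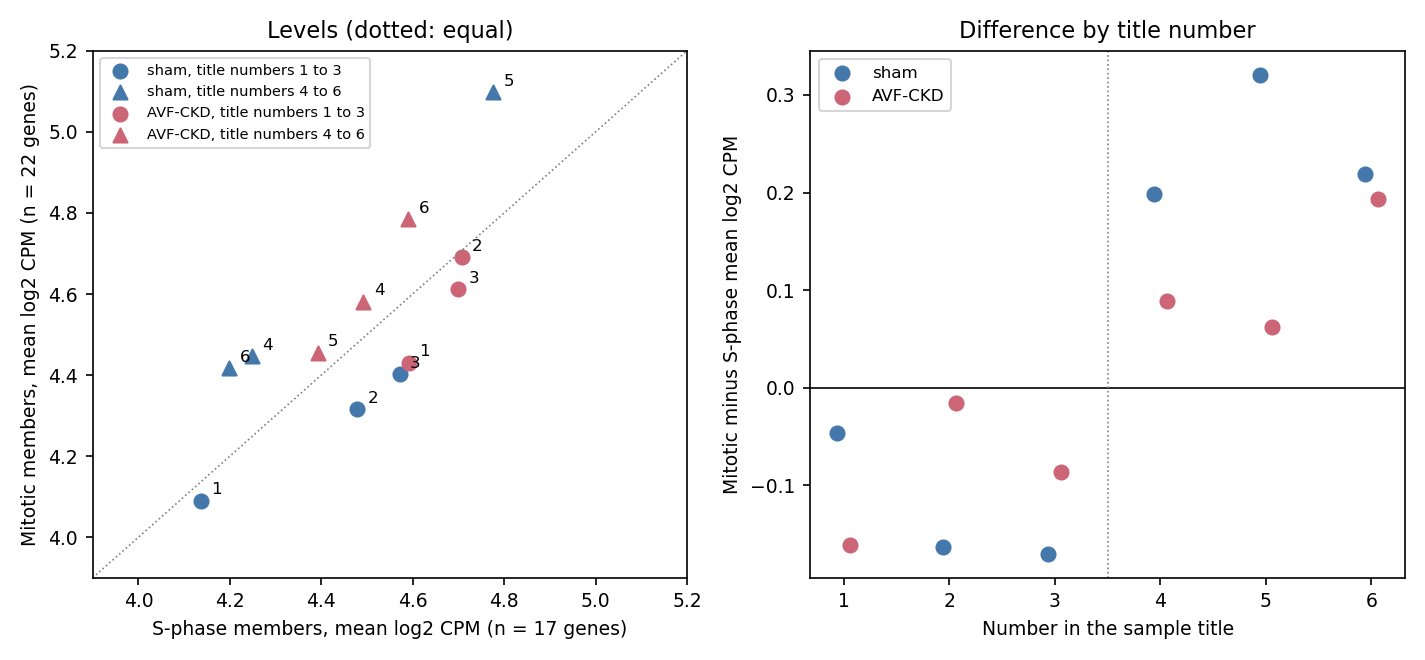
Left, mean log2 CPM of the 22 mitotic members against that of the 17 S-phase members, 1 point per library with its title number; right, their difference against the title number. Libraries numbered 4 to 6 lie above the dotted line of equal levels in both groups and those numbered 1 to 3 below it.

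Other measures moved with the same split. Genes of 7000 bases or more, relative to genes under 1500 bases, stood at -0.19 to -0.09 log2 units in numbers 1 to 3 and at 0.03 to 0.35 in numbers 4 to 6, each gene taken as its deviation from its mean over libraries. The 5 members of 7000 bases or more (Cenpf, Mki67, Top2a, Prc1 and Cenpe, all mitotic) were higher in numbers 4 to 6 by 0.37 to 0.48 log2 units, against a median of 0.19 for all genes of that length. With a smooth length curve removed from each library, the difference between mitotic and S-phase levels was 0.25 higher in numbers 4 to 6. The ranges, -0.15 to 0.01 against 0.02 to 0.31, nearly touched. With a curve on GC content removed the difference was 0.27 higher. These curves were chosen after the data were seen, and the part of gene length was not tested. Dbp, an output gene of the circadian clock, was at 6.15 to 21.4 CPM in sham 4, sham 5, sham 6 and AVF-CKD 6. The other libraries were at 77.7 to 107 CPM. These 4 libraries with low Dbp all carry a number from 4 to 6. They had the 4 highest differences between mitotic and S-phase levels (0.19 to 0.32), followed by AVF-CKD 4 at 0.09 and AVF-CKD 5 at 0.06. The part of the clock in these levels was not tested. Outside the 39, other mitotic genes minus other replication genes gave 0.00 to 0.20 in numbers 1 to 3 and 0.19 to 0.36 in numbers 4 to 6, with AVF-CKD 2 just above AVF-CKD 5. Without Ube2c, whose counts go with a muscle gene, the values were -0.05 to 0.08 and 0.13 to 0.27 and did not overlap, an alternative chosen after the data were seen.

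**Figure D4:**
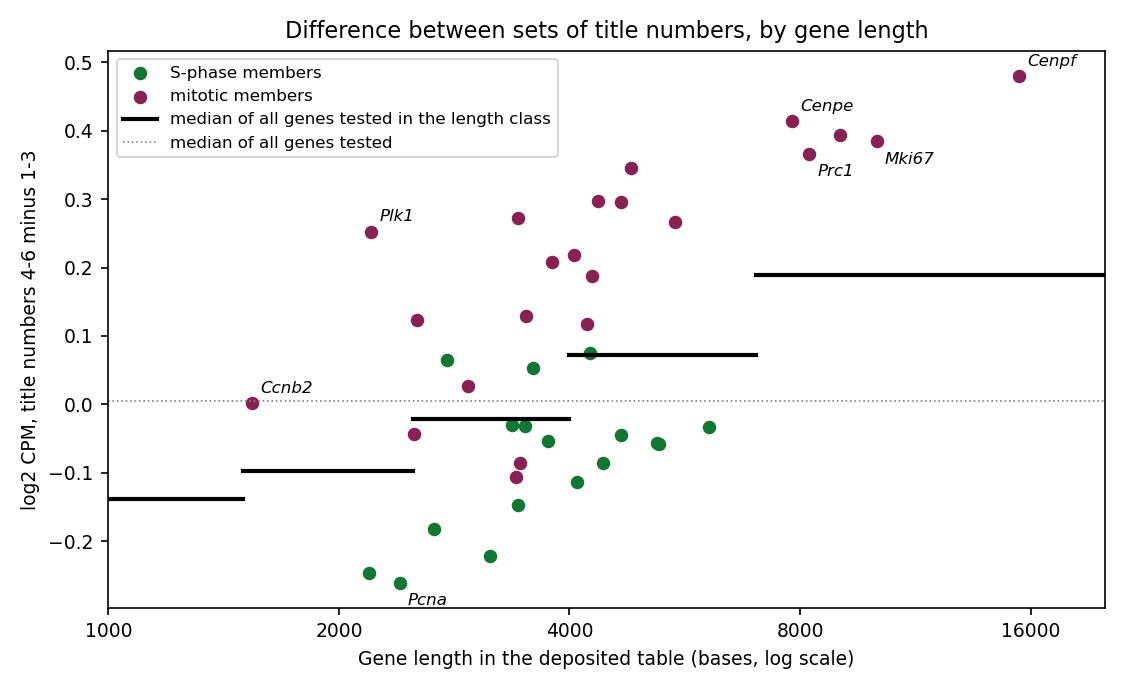
Difference in log2 CPM between libraries with title numbers 4 to 6 and 1 to 3 against gene length for each member, with the median of all genes tested in each length class as black bars. Mitotic members reach 0.48 for Cenpf, and S-phase members lie at or below 0.07.

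The comparison of AVF-CKD with sham was repeated within each set of title numbers. In numbers 1 to 3 the median log2 fold change was 0.23 for S-phase and 0.31 for mitotic members. In numbers 4 to 6, which hold sham 5, it was 0.07 and -0.12, and 18 of 39 members were above 0. The S-phase median was above 0 in both sets, and the mitotic median in numbers 1 to 3 alone. These sets were chosen after the values were seen, and sham 5 was the highest library for 22 mitotic members. No member was called within either set, each with 3 libraries a group. The difference between the sets was not tested. Macrophage sums were lowest in sham 1, sham 6 and AVF-CKD 5 (6089 to 6580 CPM), and S-phase levels were lowest in sham 1 and sham 6 (4.14 and 4.20, others 4.25 to 4.78). Within AVF-CKD, library 5 had the lowest S-phase level (4.39). Libraries 1 to 3 of that group had S-phase levels of 4.59 to 4.71 at macrophage sums of 11500 to 11867 CPM. Some libraries did not follow the order of the macrophage sums. Sham 5, with the highest S-phase level of 4.78, had a macrophage sum of 7914 CPM, AVF-CKD 6 had 4.59 at 7650 CPM, and sham 2 had 4.48 at the highest sum of 12351 CPM. The part of macrophages was not tested.

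Cell cycle genes outside the 39 had small fold changes and no call. Of 39 other replication genes 30 had a log2 fold change above 0 (median 0.10), against 49.1% of all genes. In edgeR 0 were called and 1 higher gene was below an unadjusted p of 0.05, against 5.26% of all genes. That gene was Lig1, the ligase that joins Okazaki fragments, with 17.9 to 27.5 CPM in sham and 22.9 to 26.0 CPM in AVF-CKD (0.22 ± 0.09, adjusted p = 0.513). Gins4, the most abundant of the list per length, had the smallest p among those below 0 (-0.13 ± 0.09). Of 50 other mitotic genes 45 were above 0 (median 0.11) and 0 were called. At an unadjusted edgeR p under 0.05 there were 3 above 0 (5.26% of all genes) and 1 below 0 (4.08% of all genes). Espl1, the separase that cuts cohesin, had 0.30 ± 0.10 (edgeR adjusted p = 0.421). Pttg1, which encodes securin, its inhibitor, went the other way. It lay between 21.8 and 29.5 CPM in sham and between 16.7 and 21.8 CPM in AVF-CKD, and edgeR gave -0.32 ± 0.09 on the log2 scale (adjusted p = 0.401).

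Genes that set the entry into the cycle were split. Of 7 G1 cyclin and kinase genes 5 were above 0 (median 0.04), with Cdk4, the most abundant per length, at -0.08 ± 0.09 and Ccnd1, cyclin D1, at 0.23 ± 0.17. Other gene models overlap 19.7% of the exonic bases of Cdk4 and 23.4% of those of Ccnd1, so their counts are uncertain. Of 7 CDK inhibitor genes 3 were above 0 (median -0.01). Cdkn1a, which encodes p21 and was the most abundant of them per length, had 0.15 ± 0.11. Cdkn1c, which encodes p57, was at 33.9 to 62.5 CPM in sham and 31.7 to 41.1 CPM in AVF-CKD, and edgeR gave -0.39 ± 0.12 on the log2 scale (adjusted p = 0.409). Another gene model overlaps 30.7% of the exonic bases of Cdkn1c, so its counts are uncertain. Of 17 genes for pocket proteins, E2F factors and MuvB subunits 13 were above 0 (median 0.09). Tfdp1, the E2F partner and most abundant of them per length, had 0.06 ± 0.07, E2f8, a repressor of the cycle, 0.42 ± 0.16 (edgeR adjusted p = 0.489) and E2f6 -0.10 ± 0.09. In these 3 lists 0 genes were called by edgeR. At an unadjusted edgeR p below 0.05 there were 0 higher and 2 lower CDK inhibitors and 2 higher genes of the E2F list. Of all genes tested, 5.26% were higher and 4.08% lower at that p, and 49.1% had a log2 fold change above 0.

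The count of Ube2c went with that of a neighbouring muscle gene. This ubiquitin-conjugating enzyme of mitotic exit was the most abundant of the other mitotic genes per length, at 133 RPKM, and ran from 64.1 to 766 CPM in sham and from 76.1 to 890 CPM in AVF-CKD. Tnnc2, the fast skeletal muscle troponin C gene, overlaps 22.8% of its exonic bases on the other strand. In every library the count of Ube2c exceeded that of Tnnc2 by a small remainder, 702 to 1490 reads, or 2.12% to 28.7% of its count. The remainder was largest in sham 5 (1490 reads) and smallest in sham 4 (702 reads). Its fold change between the groups is therefore not read here.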

How the data were processed

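RNA of 6 sham and 6 AVF-CKD vein samples was sequenced on an Illumina HiSeq after TruSeq library preparation, per the labels' protocols. The deposited table gives counts and RPKM values of all 12 libraries by gene. GRCm38, TopHat2 2.1.0, featureCounts and edgeR are named in the submitters' processing notes, without their roles. Which annotation release and strand setting were used is not stated there. The deposited counts were analysed without change. RPKM values, as the authors deposited them, use a library total 1.15 to 1.19 times the sum of counts and were not used. Genes of the mitochondrial chromosome (37) were at 0 in every library. Columns of samples outside the series numbered 0.

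Genes with low counts were removed by filterByExpr. After TMM scaling, edgeR 4.0.16 (R 4.3.3) fitted the group over all genes by quasi-likelihood, with p-values adjusted by Benjamini-Hochberg and called below 0.05. The biological coefficient of variation was 24.2%. Standard errors and 95% intervals come from the same fit. Log2 CPM has a prior count of 2. DESeq2 1.42.0, limma 3.58.1 voom, other scalings and filters and leaving out each library were alternatives. The length and GC curves were lowess fits (span 0.3) entered as offsets. The fits were tested on simulated data. All 66 pairs of libraries differed by more than sampling noise (chi-square over its degrees of freedom from 47.8 to 212).

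The members and lists were chosen with earlier results of these data known. Values by library are given for Mki67 and, in each of 9 roles, for the member with the highest RPKM and that with the smallest p. The members with the highest and lowest fold change and those with a library far from its group were added, and in other lists the most abundant gene and the smallest p in each direction. Coordinates are those of the table, which match GRCm38. For some genes, Kif20a and Cdkn1c among them, they differ from those of the GENCODE M21 models. Overlap of exons was computed with the GENCODE M21 models, which are not in all cases those counted. Besides Gins2 and Kif20a, the largest overlaps among members were 17.4% for Ccne2, 12.6% for Mcm7, 12.5% for Ccna2 and 11.1% for Prc1.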

Additional observations from a re-analysis of the deposited data

Results flagged for a closer look

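A library was far from the other 5 of its group, by Dixon's test at the 95% level, in 14 members in sham and 3 in AVF-CKD. By chance about 1 in 20 groups is singled out in this way, and 7.45% of all genes tested were in sham and 6.11% in AVF-CKD.

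In sham the far library was sham 5 in all 14, always on the high side. Among helicase and cyclin genes it stood at 32.1 CPM for Mcm2 (other sham libraries 20.1 to 23.7 CPM), 74.0 CPM for Ccna2 (38.8 to 50.1 CPM) and 25.4 CPM for Ccnb2 (16.4 to 19.0 CPM). Its Cdk1 level was 42.5 CPM (24.6 to 30.5 CPM) and its Foxm1 level 33.6 CPM (14.7 to 20.5 CPM). For the mitotic kinases it was at 15.6 CPM for Aurka (8.01 to 9.66 CPM), 17.5 CPM for Aurkb (9.48 to 12.3 CPM) and 18.4 CPM for Plk1 (8.91 to 11.8 CPM). For centromere and spindle genes it was at 33.8 CPM for Cenpa (23.2 to 27.0 CPM), 47.9 CPM for Kif20a (28.3 to 34.7 CPM), 26.0 CPM for Kif23 (13.4 to 16.98 CPM) and 45.8 CPM for Tpx2 (21.4 to 28.4 CPM). Mki67 stood at 126 CPM (57.8 to 83.3 CPM) and Top2a at 109 CPM (46.1 to 69.2 CPM). The mean log2 CPM of all 22 mitotic members was 5.10 in sham 5 and 4.09 to 4.45 in the other sham libraries.

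In AVF-CKD, library 6 was high for Rrm2 at 26.7 CPM (others 22.5 to 23.8 CPM) and for Foxm1 at 27.8 CPM (22.2 to 23.5 CPM), and library 5 was low for Bub1b at 19.5 CPM (22.9 to 24.4 CPM).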

How the results depend on the processing

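No member was called under any of the 24 alternatives. The number of genes called was 102 with DESeq2 and 0 to 1 when a library was left out (1 without AVF-CKD 3). The median log2 fold change of the S-phase members stayed between 0.0686 and 0.24 over the 24 alternatives, and that of the mitotic members went from -0.116 within title numbers 4 to 6 to 0.313 within numbers 1 to 3. The sets of numbers and the length and GC curves were chosen after the data were seen. Members above 0 numbered 18 within numbers 4 to 6, and 29 to 39 when a library was left out. With the title number as a replicate block, edgeR called 0 genes, with 2058 genes and 3 members at an unadjusted p below 0.05. Deviations of same-numbered libraries correlated at -0.03, 0.24, 0.28, -0.11, -0.10 and 0.14, so the numbers were not taken to pair the samples. Fold changes near 0 changed sign. Kif20a was at 0.0163 with the replicate block, 0.0207 with voom, 0.00719 with the sets of numbers as a term, 0.143 within numbers 1 to 3 and 0.000235 with the GC curve removed. Ccnb2 was at 0.0834 within numbers 1 to 3. Within numbers 4 to 6 Mcm6 was at -0.0422, Pcna at -0.106, Ccna2 at -0.144, Birc5 at -0.185, Cenpa at -0.124 and Bub1b at -0.0119. Leaving out a library gave -0.0536 to 0.112 for Kif20a, -0.0839 to 0.0584 for Ccnb2, -0.0187 to 0.0902 for Pcna, -0.0236 to 0.179 for Ccna2, -0.0239 to 0.204 for Birc5 and -0.033 to 0.122 for Cenpa. Removing the length curve changed no sign or call. The scalings moved the median of all genes to -0.0048 and -0.0014. The difference of mitotic and S-phase levels ran from -0.131 within numbers 4 to 6 to 0.0389 within numbers 1 to 3, and was not computed with DESeq2 or voom.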
